A study of Mus musculus with 4 samples.

Results

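Mt1 and Mt2 are the metallothionein genes that mouse kidney is known to express, and they were followed as a pair across the tubule cell classes and across all 4 libraries of a Drop-seq study of renal cortex. They are 2 of the 22078 genes listed in the count files, and were chosen by their measured levels in cell classes, which an earlier look at these data had found high in loop and distal cells, so that pattern is described without a test. Metallothioneins are small, cysteine-rich proteins that bind zinc and copper ions. Their transcription is switched on by the zinc-sensing factor Mtf1 acting at metal response elements, and also by glucocorticoids and by oxidative stress. In kidney they are best known for binding cadmium and for buffering zinc in tubule cells.

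The Akita group held 2 libraries from C57BL/6-Ins2Akita/J mice, aged 116 and 119 days, a strain whose Ins2 insulin gene is mutant and which is used as a model of type 1 diabetes. The wild-type group held 2 libraries from mice aged 45 and 51 days. Each library came from the cortex of 1 kidney, digested with collagenase IV and passed through a sieve, with no sort recorded. Age and genotype cannot be told apart in any comparison below, and the housing time in the labels' growth protocol is longer than any of these ages. In Drop-seq each mRNA copy carries a cell barcode and a unique molecular identifier (UMI), and the files give UMI counts. The files held 1016719 and 1200209 UMIs in Akita and 1303453 and 1115055 in wild type, and 311 and 600 barcodes in Akita and 564 and 441 in wild type were retained as cells, 1916 in all. Akita replicate 2 shared 884 barcodes with Wild-type replicate 1, against 3 or 4 for every other pair of libraries. Of these, 424 were retained in both files and 423 of the 424 had the same class in both, so most cells of these 2 libraries are counted in both genotypes. Genotype results are therefore also given with each such barcode assigned to 1 of the 2 libraries by the ratio of its UMIs in them, below called single assignment. The median ratio, Akita replicate 2 to Wild-type replicate 1, was 1.33 for barcodes assigned to Akita and 0.546 for those assigned to wild type. The cut lay midway between these on a log scale, so the origin of a single barcode is uncertain.

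On GRCm38, both genes lie on the plus strand of chromosome 8 with 3 exons each: Mt2 (ENSMUSG00000031762) at 94172664 to 94173568 and Mt1 (ENSMUSG00000031765) at 94179082 to 94180327, 5513 bases further on. Mt3, the brain-enriched member, and Mt4, the member of stratified epithelia, lie upstream on the same strand. All 4 genes fit in 43131 bases. The RefSeq promoter windows of Mt1 (chr8:94178839-94179118) and Mt2 (chr8:94172368-94172647), GRCm38.p6, plus strand, are shown because the genes were high in the same cells. They run from 250 bases before the RefSeq start to 30 after it, with matches to the metal response element core in capitals. The core was searched as TGCACNC or TGCGCNC on both strands, and a match in capitals can therefore read in reverse complement.
Mt1: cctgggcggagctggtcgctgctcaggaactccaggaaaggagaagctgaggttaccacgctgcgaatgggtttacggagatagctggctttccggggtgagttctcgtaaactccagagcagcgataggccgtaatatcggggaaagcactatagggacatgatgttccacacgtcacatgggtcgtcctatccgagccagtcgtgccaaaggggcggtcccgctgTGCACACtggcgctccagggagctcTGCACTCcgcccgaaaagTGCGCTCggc
Mt2: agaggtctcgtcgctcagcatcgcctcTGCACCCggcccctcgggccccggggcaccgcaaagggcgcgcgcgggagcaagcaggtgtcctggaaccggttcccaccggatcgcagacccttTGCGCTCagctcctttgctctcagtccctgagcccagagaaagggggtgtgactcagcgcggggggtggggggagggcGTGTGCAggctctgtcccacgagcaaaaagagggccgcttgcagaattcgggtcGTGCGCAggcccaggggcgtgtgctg
In the full windows, which run to 50 bases after the start, Mt1 had 3 matches, all on the plus strand, at -23, 3 and 21 counted from the start. Mt2 had 4 matches, at -223 and -128 on the plus strand and at -50 and 5 on the minus strand. Mt3 and Mt4 had 1 each. Of 32817 RefSeq windows of the same length, 1.97% held at least 3 matches and 0.518% at least 4. The antioxidant response core, searched as TGACNNNGC on both strands, had 1 match in the Mt2 window and 0 in the Mt1 window, and at least 1 in 12.4% of windows. These matches describe the letters of the windows and not the binding of a factor. Sequence outside the windows was not searched, and the positions depend on the RefSeq start used. A count of 0 in a window therefore does not mean that a gene lacks the element.

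Mt1 supplied most of the metallothionein UMIs. The files held 661 and 561 Mt1 UMIs in Akita and 708 and 491 in wild type, and 115 and 71 Mt2 UMIs in Akita and 92 and 61 in wild type. Mt3 was close to absent, with 0 and 1 UMIs in Akita and 3 and 0 in wild type. Mt4 had 0 in every file, which allows up to 2.30 to 2.95 CPM, where CPM is the UMIs of a gene scaled to 1000000 UMIs of its library or class. Reads of the 2 genes could be told apart by sequence: no stretch of 31 bases of a Mt1 transcript occurred in any transcript of another gene of the GENCODE annotation, and 3 stretches of Mt2 occurred in Pip5k1a. An antisense gene, Gm45774, overlaps 749 bases of Mt2 but not its last 156 bases, where 3′ reads would fall. It had 0 and 2 UMIs in Akita and 2 and 3 in wild type, and whether the counting used strand is not given in the sources used here.

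Cells were classed by clustering without any metallothionein gene. The cluster with the most Mt1 held 291 cells and carried markers of neighbouring segments at once. Among its 50 leading genes were 5 markers of the distal convoluted tubule, such as Slc12a3, the thiazide-sensitive sodium-chloride cotransporter, and 4 of the thick ascending limb of the loop of Henle, such as Umod, which encodes uromodulin. Its cells were therefore divided by their cotransporter UMIs. Only 20 cells had more UMIs of Slc12a1, the cotransporter of the thick ascending limb, while 230 had more of Slc12a3, 39 had neither and 2 had equal numbers. The 20 are called loop of Henle-like (3 and 6 in the Akita libraries, 4 and 7 in the wild-type libraries) and the other 271 distal convoluted tubule-like (47 and 94, against 72 and 58). With each shared barcode counted once, the loop of Henle-like cells had 6109 CPM of Umod, 449 CPM of Cldn10, a claudin of the thick limb, and 225 of Tmem207, against 2448, 29.9 and 0 CPM in distal convoluted tubule-like cells. The distal convoluted tubule-like cells had 621 CPM of Pvalb, the calcium buffer parvalbumin, and 116 of the magnesium channel gene Trpm6, against 0 of both in loop of Henle-like cells. In the 22264 UMIs of the loop class a count of 0 allows up to 135 CPM, so Trpm6 does not separate the classes. By cotransporter, most cells of this Umod-rich cluster were distal convoluted tubule-like, and values for the thick limb rest on 20 cells. Other markers divide them less sharply. Umod was seen in 63.6% and the loop marker Egf in 74.8% of distal convoluted tubule-like cells. Egf had 2970 CPM in these and 4312 CPM in loop of Henle-like cells. Cldn10 and Tmem207 rested on 10 and 5 UMIs in loop of Henle-like cells, and Cldn10 had 127 CPM in proximal tubule-like cells. The remaining classes were connecting tubule-like (55 cells), intercalated-like (111) and proximal tubule-like (1445 cells in 6 clusters), besides 14 macrophage or dendritic-like cells with 1 Mt1 UMI.

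With these classes and averaged over libraries, Mt1 was highest in distal convoluted tubule-like cells. It stood there at 4057 and 2790.3 CPM in the Akita libraries and 3147 and 2331 CPM in the wild-type libraries. In proximal tubule-like cells, the bulk of the cortex, it stood at 282 and 149 CPM in Akita and 258 and 232 CPM in wild type. No library's values for the 2 classes came near each other, and the distal value was the higher in each. On the log2(CPM + 10) scale the difference was 3.69 ± 0.37 (SD, n = 4 libraries), or 12.9-fold. Since 2 of the libraries share most of their cells, the 4 values are not independent, here and in the other class differences. Under single assignment the Mt1 difference was 3.80 and 4.39 in Akita and 3.53 and 3.28 in wild type. Among nuclear genes ranked by level, Mt1 stood 12th and 27th in Akita distal convoluted tubule-like cells and 19th and 31st in the wild-type ones. In proximal tubule-like cells its ranks were 486 and 899 in Akita and 524 and 601 in wild type. The distal convoluted tubule-like cells made up 15.1% and 15.7% of the retained Akita cells and 12.8% and 13.2% of the wild-type cells, yet gave 70.5% and 74.0% of Mt1 UMIs in Akita and 63.9% and 48.9% in wild type.

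Mt2 was also higher in distal convoluted tubule-like than in proximal tubule-like cells, at lower levels than Mt1. It reached 765 and 272 CPM in the Akita distal convoluted tubule-like cells and 361 and 389 CPM in the wild-type ones, the Akita libraries enclosing both wild-type values. In proximal tubule-like cells it had 16.2 and 23.1 CPM in Akita and 26.2 and 7.25 CPM in wild type, from 4 to 17 UMIs a library. The difference between the classes was 3.97 ± 0.88 (log2, SD, n = 4), or 15.6-fold. Under single assignment the Mt2 difference was 4.89 and 3.47 in Akita and 3.64 and 4.53 in wild type. Both members were at least 2-fold higher in distal convoluted tubule-like than in proximal tubule-like cells in each of the 4 libraries, which held for 9.64% of the 3506 genes with a mean of at least 50 CPM in either class. The genes were chosen for this pattern, and nothing is read from that count.

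**Figure D1:**
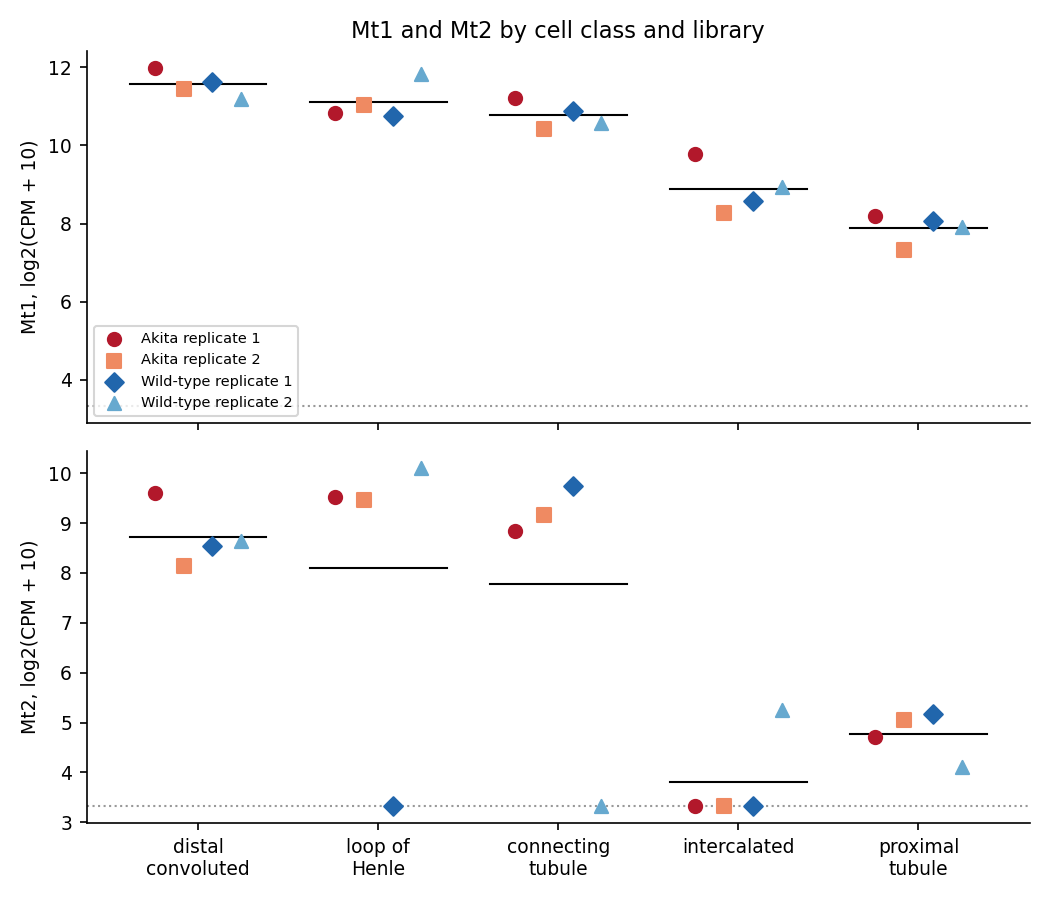
Mt1 (upper panel) and Mt2 (lower panel) in 5 cell classes as log2(CPM + 10) of UMIs summed per library; points are libraries, Akita left of wild type, black bars are means over 4 libraries and the dotted line marks a count of 0. Mt1 lies between 2331 and 4057 CPM in distal convoluted tubule-like cells and between 149 and 282 CPM in proximal tubule-like cells, and Mt2 is at 0 in 1 library each of the loop and connecting classes and in 3 of the intercalated class.

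The loop of Henle-like cells also held much metallothionein, on few UMIs. Mt1 had 10 and 6 UMIs in the Akita libraries (1810.3 and 2093 CPM) and 6 and 46 in the wild-type libraries (1719 and 3598 CPM). Mt2 had 4 and 2 UMIs in Akita and 0 and 14 in wild type. The loop of Henle-like minus proximal tubule-like difference was 3.24 ± 0.67 for Mt1 and 3.34 ± 3.53 for Mt2 (log2, SD, n = 4), above 0 in 4 of 4 libraries for Mt1 and in 3 of 4 for Mt2, the exception being Wild-type replicate 1, whose 0 Mt2 UMIs allow up to 860 CPM. With at most 25% mitochondrial UMIs per cell, Akita replicate 1 kept 1 loop of Henle-like cell with 0 Mt1 UMIs, and the Mt1 difference was 0.79. Pooled over libraries with each shared barcode once, Mt1 stood at 2875 CPM (95% Poisson interval 2214 to 3671) in 16 loop of Henle-like cells and at 3015 CPM (2832 to 3207) in 206 distal convoluted tubule-like cells. These intervals overlap, and like all intervals here they cover counting error only. The 2 classes could not be ordered at this depth. Cells were also classed without clusters, by their largest share of marker UMIs relative to the mean share. Mt1 in the loop class was then 3111 and 2614 CPM in Akita and 2392 and 1804 CPM in wild type. In the distal convoluted class it was 2816 and 2072 CPM in Akita and 2285 and 1904 CPM in wild type. The loop class was thus the higher except in Wild-type replicate 2.

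Along the tubule beyond the distal convoluted segment, Mt1 was lower. Connecting tubule-like cells, led by S100g, Klk1 and Calb1, which serve calcium handling and kallikrein secretion, had 2383 and 1359 CPM in Akita and 1863 and 1501 CPM in wild type. The distal convoluted tubule-like value was higher in each library, by 0.80 ± 0.17 (log2, SD, n = 4), a 1.74-fold difference. Intercalated-like cells, the acid- and base-secreting cells of the distal nephron, had 873 and 301 CPM in Akita and 374 and 476 CPM in wild type, from 11 to 17 UMIs a library. That was 2.67 ± 0.50 below the distal convoluted tubule-like value and 1.02 ± 0.44 above the proximal tubule-like value (log2, SD, n = 4), in each library. Taking distal convoluted, connecting and intercalated-like cells together, the difference from proximal tubule-like cells was 3.37 ± 0.39 for Mt1 and 3.69 ± 0.77 for Mt2 (log2, SD, n = 4).

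In order of mean level, Mt1 had 3081 ± 731 CPM in distal convoluted, 2305 ± 876 in loop of Henle, 1777 ± 457 in connecting, 506 ± 255 in intercalated and 230.3 ± 57.7 CPM in proximal tubule-like cells (SD, n = 4). The first 2 of these, and the second and the third, do not differ beyond their spread, and in Wild-type replicate 2 the loop value of 3598 CPM lay above the distal convoluted value of 2331 CPM. For Mt2 the order was another one, with 629 ± 457 CPM in loop of Henle, 465 ± 352 in connecting and 447 ± 218 CPM in distal convoluted tubule-like cells, which lie within their spread. Mt2 then dropped to 18.2 ± 8.40 CPM in proximal tubule-like cells, and intercalated-like cells had 0 Mt2 UMIs in 3 libraries and 1 in Wild-type replicate 2.

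The share of Mt2 among the metallothionein UMIs differed between pooled classes, but overlapped between classes when taken by library. With each shared barcode once, Mt2 made up 22.9% of Mt1 and Mt2 UMIs in loop of Henle-like cells (95% exact binomial interval 14.4% to 33.4%, 83 UMIs) and 19.0% in connecting tubule-like cells (11.03% to 29.4%, 79 UMIs). Its share was 13.5% in distal convoluted tubule-like cells (11.6% to 15.6%, 1168 UMIs) and 6.60% in proximal tubule-like cells (4.53% to 9.23%, 470 UMIs). Of 44 metallothionein UMIs in intercalated-like cells, 1 came from Mt2, a share of 2.27% (0.0575% to 12.0%). By library, the share in distal convoluted tubule-like cells was 15.9% and 8.88% in Akita and 10.3% and 14.3% in wild type. In proximal tubule-like cells it was 5.43% and 13.4% in Akita and 9.19% and 3.03% in wild type, so Akita replicate 2 showed the reverse order of the classes. Over libraries the share averaged 12.3% ± 3.29 in distal convoluted, 19.2% ± 13.0 in loop of Henle and 7.76% ± 4.53 in proximal tubule-like cells (SD, n = 4), and it was not tested. In the connecting class the share was 15.8% and 29.4% in Akita and 31.2% and 0% in wild type, and Wild-type replicate 2 stood apart with 0 Mt2 UMIs beside 21 of Mt1.

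**Figure D2:**
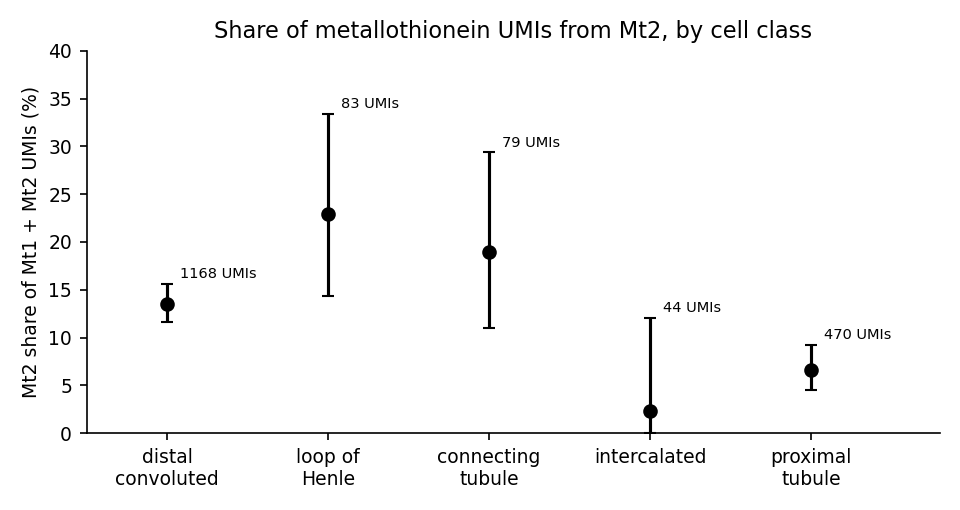
Share of metallothionein UMIs that came from Mt2 (%, vertical axis) in 5 cell classes, all libraries pooled with each shared barcode counted once; points are shares, bars are 95% exact binomial intervals and numbers are Mt1 plus Mt2 UMIs. The share is 22.9% in loop of Henle-like cells, 13.5% in distal convoluted tubule-like cells and 6.60% in proximal tubule-like cells.

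Mt1 was spread over most distal convoluted tubule-like cells. With each shared barcode once, 161 of 206 such cells (78.2%, interval 71.9% to 83.6%) had a Mt1 UMI, against 256 of 1136 proximal tubule-like cells (22.5%, 20.1% to 25.1%), at median depths of 803.5 and 785 UMIs. After thinning each cell to 400 UMIs, which left out 23 distal convoluted tubule-like and 142 proximal tubule-like cells, the shares were 63.9% and 8.15%. For Mt2 the unthinned shares were 29.6% of distal convoluted tubule-like and 2.29% of proximal tubule-like cells, and the thinned ones 11.5% and 0.805%. Among cells of at least 1000 UMIs, the median distal convoluted tubule-like cell had 19.5 Mt1 UMIs per 10000, with quartiles of 10.8 and 39.6, and 4 of 80 had none. The median loop of Henle-like cell had 18.6 (6 cells) and the median connecting tubule-like cell 16.7 (16 cells). Intercalated-like cells had a median of 3.03 (32 cells), and 272 of 444 proximal tubule-like cells had none.

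**Figure D3:**
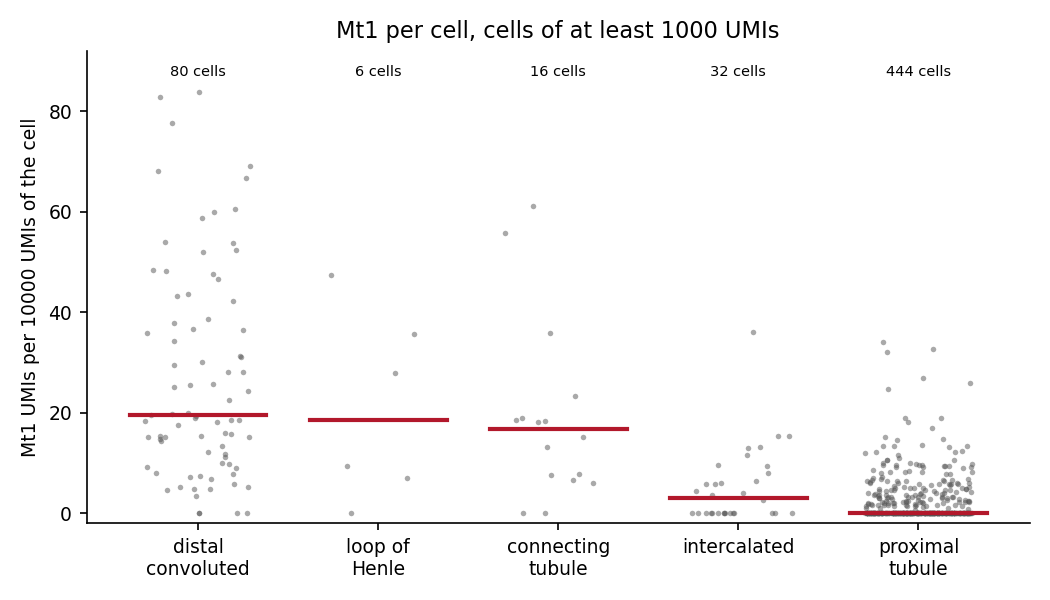
Mt1 UMIs per 10000 UMIs in single cells of at least 1000 UMIs, by class, each shared barcode once; grey points are cells and red bars medians. The medians are 19.5 in distal convoluted tubule-like, 18.6 in loop of Henle-like and 0 in proximal tubule-like cells, with single proximal tubule-like cells reaching 34.1.

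A few deep cells carried much of the distal total in 1 library. In Akita replicate 1, 2 distal convoluted tubule-like cells of 21784 and 16706 UMIs held 105 and 98 Mt1 UMIs, 52.5% of the class total there. The corresponding share of the top 2 cells was 17.8% in Akita replicate 2, and 20.8% and 32.8% in the wild-type libraries. Scaled to 10000 UMIs these 2 cells had 48.2 and 58.7, on either side of the library's upper quartile of 50.1 in that class. Without the top 2 cells of each library, Mt1 stood at 3234 and 2475 CPM in Akita and 2863 and 2443 CPM in wild type. Mt2 was then at 492 and 235 CPM in Akita and 316 and 410.2 CPM in wild type.

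Mt2 was seen most often in cells with many Mt1 UMIs, which were also the deepest, but without a graded relation below that. Of 42 distal convoluted tubule-like cells with 6 or more Mt1 UMIs, 31 had a Mt2 UMI (73.8%, interval 58.0% to 86.1%), at a median depth of 2423 UMIs. Of 45 cells with no Mt1 UMI, 7 had one (15.6%, 6.49% to 29.5%), at a median of 547 UMIs. In between, 17.5% of the 80 cells with 1 to 2 Mt1 UMIs and 23.1% of the 39 cells with 3 to 5 had one. As a level, Mt2 was 637 CPM in cells with 6 or more Mt1 UMIs, 246 CPM with 3 to 5, 271 CPM with 1 to 2 and 273 CPM with none. Of the 119 Mt2 UMIs behind the 637 CPM, 28 and 17 came from the Akita replicate 1 cells of 21784 and 16706 UMIs. Of the 61 cells with a Mt2 UMI, 30 thus had fewer than 6 of Mt1. The part that depth has in this was not tested.

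Within the distal convoluted tubule-like class, the late-segment gene Calb1, which encodes calbindin, marked little difference in level. Cells with a Calb1 UMI averaged 3061 ± 1004 CPM of Mt1 and cells without one 3049 ± 313 CPM (SD, n = 4 libraries). Cells with a Pvalb UMI, an early-segment marker, averaged 3225 ± 1002 CPM and those without one 2852 ± 307 CPM (SD, n = 4). Neither difference exceeds the spread between libraries. The 32 cells of the shared cluster with neither cotransporter held 3435 CPM of Mt1 (2672 to 4347), against 2992 CPM (2804 to 3190.1) in the 172 with more Slc12a3, and these intervals overlap.

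Proximal tubule-like cells were not alike. Clusters 1 and 5 share Gatm, a creatine synthesis enzyme, and the transcription factor Maf among their leading genes, and cluster 1 also has Slc5a12, a lactate transporter. Together they had Mt1 at 380.4 and 355 CPM in Akita and 483 and 453 CPM in wild type. Clusters 0 and 6, which share Slc7a13, an amino acid transporter of the late proximal tubule, among their leading genes, had 332 and 71.5 CPM in Akita and 124 and 125 CPM in wild type. The first pair of clusters was higher in each library, with the smallest gap in Akita replicate 1, where cluster 6 rested on 18 cells with 9 Mt1 UMIs. Mt2 had 16 UMIs in clusters 1 and 5 over the 4 libraries and 2 in clusters 0 and 6. The Mt2 of the first pair lay mostly in cluster 1, at 49.2 ± 23.0 CPM against 7.13 ± 14.3 CPM in cluster 5 (SD, n = 4). Cluster 4, outside both pairs, averaged 19.5 ± 9.42 CPM. Clusters were paired by leading genes after these values were known, so the difference has no test.

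In droplet data, RNA from broken cells also gives UMIs in cells that do not express a gene. Barcodes not retained as cells, with a median of 204 and 256 UMIs in Akita and 225 and 215 in wild type, had Mt1 at 247 and 171 CPM in Akita and 281 and 184 CPM in wild type. The proximal tubule-like levels of 282 and 149 CPM in Akita and 258 and 232 CPM in wild type lay on both sides of these. Barcodes went unretained for few genes or many mitochondrial UMIs, so they can include shallow or damaged cells. Their level is therefore no measure of free RNA alone, and whether the proximal level as a whole is expression was not tested. Clusters 1 and 5 were above the non-retained level in each library, by 1.54 to 2.46 times. The ratio to the non-retained level was 11.2 to 16.4 in distal convoluted tubule-like cells, 6.11 to 19.5 in loop of Henle-like cells and 6.63 to 9.65 in connecting tubule-like cells. Slc12a3, which defines distal convoluted cells, was set beside Mt1 in 3′ UMIs, which do not scale with transcript length. Pooled with each shared barcode once, Slc12a3 had 349.5 CPM in proximal tubule-like cells and 767 CPM in non-retained barcodes, while Mt1 had 246 and 224 CPM. Mt1 numbered 39.8 and 39.9 UMIs per 100 of Slc12a3 in Akita distal convoluted tubule-like cells and 46.9 and 36.4 in wild-type ones. In proximal tubule-like cells it numbered 61.9 and 93.3 in Akita and 127 and 51.2 in wild type, and in non-retained barcodes 23.1 and 40.2 in Akita and 54.0 and 20.4 in wild type. The ratio was higher in proximal tubule-like cells than in either of the others in each library. The part of RNA from broken cells in these values was not tested.

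**Figure D4:**
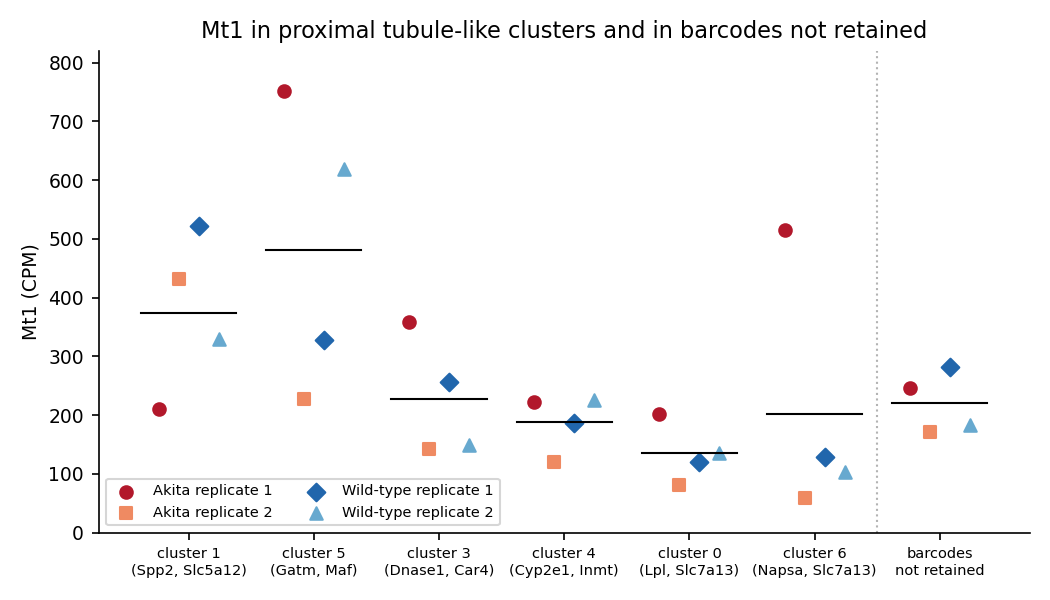
Mt1 CPM (vertical axis, from 0) in the 6 proximal tubule-like clusters, labelled by 2 of their leading genes, and in barcodes not retained as cells; points are libraries, Akita left of wild type, and bars are means over 4 libraries. Clusters 1 and 5 average 373 and 482 CPM, clusters 0 and 6 135 and 202 CPM, and the non-retained barcodes lie between 171 and 281 CPM.

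Other genes with the pattern of the pair were sought among 1431 genes of at least 100 CPM, by Pearson r of log2(CPM + 10) with the sum of Mt1 and Mt2 over 8 profiles, the distal convoluted tubule-like and proximal tubule-like cells of each library. Mt1 and Mt2 themselves had r = 0.97. The 8 genes most alike were Ckb, Tmem52b, Umod, Cox6c2, S100g, Kng2, Mal and Nfe2l1, with r between 0.993 and 0.996. Ckb, the brain-type creatine kinase, averaged 552 ± 86.3 CPM in distal convoluted tubule-like cells and 13.5 ± 5.76 CPM in proximal tubule-like cells (SD, n = 4). Nfe2l1, a stress-responsive transcription factor, averaged 402 ± 45.2 CPM and 77.4 ± 6.97 CPM. S100g, a calcium-binding protein, averaged 2688 ± 762 CPM and 275 ± 35.6 CPM. Outside these profiles S100g was unlike Mt1, with 52295 CPM in connecting tubule-like and 719 CPM in loop of Henle-like cells (pooled, each shared barcode once). Least alike were Gcnt1, Msra, Nat8f1 and Ces1d, with r between -0.995 and -0.992. Ces1d, a carboxylesterase, averaged 129.8 ± 22.0 CPM in distal convoluted tubule-like cells and 563 ± 73.4 CPM in proximal tubule-like cells (SD, n = 4). The profiles are 2 classes in 4 libraries that share cells, so r mostly reads the gap between the classes. Over 11 cell groups pooled across libraries, in a ranking chosen after these values were seen, Kng2, which encodes a kininogen, led with r = 0.95, followed by Tmem72, Aebp1, Ppp1r1a and Aes, while Mt1 and Mt2 had r = 0.90.

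The known regulators of metallothionein genes and related pathways were set beside the pair by the same rule of at least 2-fold in each library. Of 21 zinc sensing and transport genes 4 could be assessed, and 1 was higher in distal convoluted tubule-like cells, Slc39a13, a zinc importer of the secretory pathway, at 143 ± 35.9 CPM against 39.3 ± 7.79 CPM in proximal tubule-like cells (SD, n = 4). The zinc exporters Slc30a2, Slc30a5 and Slc30a9 averaged 28.9, 36.9 and 46.5 CPM in distal convoluted tubule-like cells and 52.1, 67.05 and 96.6 CPM in proximal tubule-like cells, and did not meet the rule. Mtf1 itself, outside the naming rule and named as the regulator, averaged 20.3 and 17.4 CPM, too low to be assessed. Of 20 copper and iron genes 11 could be assessed. Tfrc, the transferrin receptor, was higher at 401 ± 33.1 CPM against 82.2 ± 13.3 CPM. The copper-zinc superoxide dismutase Sod1 (308 ± 49.4 against 1039 ± 63.9 CPM) and the ferritin light chain Ftl1 (1308 ± 198 against 3497 ± 767 CPM) were lower. The copper chaperone Atox1 (436 against 514 CPM) and the ferritin heavy chain Fth1 (8352 against 7958 CPM) met the rule in neither direction. At least 2-fold lower in each library held for 13% of the 3506 genes. These lists were drawn up with earlier results of these data known.

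Of 16 glucocorticoid-related genes 4 could be assessed, and 1 was lower, Errfi1, a feedback inhibitor of the EGF receptor, at 80.5 ± 24.3 CPM in distal convoluted tubule-like cells against 307 ± 53.0 CPM in proximal tubule-like cells. The receptor gene Nr3c1 (49.7 against 83.8 CPM), its co-chaperone gene Fkbp5 (135 against 114 CPM) and the transcription factor Klf9 (141 against 353 CPM) met the rule in neither direction. Of 12 antioxidant response genes 7 could be assessed. Gclm, a subunit of the enzyme that limits glutathione synthesis, was lower at 94.6 ± 22.3 CPM against 343 ± 50.6 CPM, and thioredoxin, Txn1, was lower at 212 ± 28.2 CPM against 676 ± 72.5 CPM. Thioredoxin reductase Txnrd1 (91.5 against 152 CPM) and peroxiredoxin Prdx1 (569.7 against 1101 CPM) did not meet the rule. Of 16 immediate early and stress genes that tissue dissociation can raise 4 could be assessed, and Ier3, an early response gene, was higher at 173 ± 137 CPM against 5.14 ± 2.53 CPM. Jund (165 against 84.5 CPM), Hspa8 (1277 against 1883 CPM) and Hsp90aa1 (725 against 682 CPM) met the rule in neither direction, and Jun (46.3 against 21.1 CPM) was too low to be assessed. The median log2 difference was -0.83, -0.42, -1.003 and -0.69 for the zinc, copper and iron, glucocorticoid and antioxidant lists and 0.46 for the stress list, against 0.03 over all genes assessed. The median was below that of all genes in 4 of the 5 lists.

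Between genotypes, neither gene differed beyond the spread between libraries. Over all retained cells Mt1 had 984 and 642 CPM in Akita and 705 and 592 CPM in wild type, and the groups overlapped. In edgeR's quasi-likelihood test the log2 fold change was 0.30 ± 0.23 (SE; 95% interval -0.18 to 0.79; Benjamini-Hochberg adjusted p = 1.00). Mt2 had 156 and 79.4 CPM in Akita and 84.9 and 75.3 CPM in wild type, a change of 0.51 ± 0.29 (-0.11 to 1.13, edgeR adjusted p = 1.00). None of the 7169 genes tested was called at an adjusted p under 0.05 (0%), with 68 at an unadjusted p under 0.05, 0 called by DESeq2 and 0 by limma-voom. In Akita 17.1% and 17.03% of retained UMIs came from distal convoluted tubule-like cells, against 14.3% and 12.4% in wild type, and the part of this in the whole-cortex values was not tested. The genotype tests, here and below, take the libraries as independent, which Akita replicate 2 and Wild-type replicate 1, sharing most of their cells, are not. Under single assignment the Mt1 change was -0.02 ± 0.32 and the Mt2 change 0.19 ± 0.41. Without Akita replicate 1 the changes were 0.02 for Mt1 and 0.03 for Mt2, and without Akita replicate 2 they were 0.52 and 0.88. Without Wild-type replicate 1 they were 0.48 and 0.65, and without Wild-type replicate 2 they were 0.13 and 0.38.

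In distal convoluted tubule-like cells the Mt1 change was 0.37 ± 0.24 (SE; -0.12 to 0.85; edgeR adjusted p = 0.996) and the Mt2 change 0.48 ± 0.34 (-0.22 to 1.18, adjusted p = 0.996), with 0 of 1544 genes called (0%), 16 at an unadjusted p under 0.05 and 0 called by DESeq2 or limma-voom. Under single assignment Mt1 stood at 4057 and 1877 CPM in Akita and 4449 and 2331 CPM in wild type, a change of -0.13 ± 0.34, opposite in sign, and Mt2 changed by 0.02 ± 0.43. The Mt2 change moved to -0.41 without Akita replicate 1, to 1.05 without Akita replicate 2, and to 0.45 and 0.49 without each wild-type library. The Mt1 change moved to 0.06 without Akita replicate 1, to 0.57 without Akita replicate 2, to 0.63 without Wild-type replicate 1 and to 0.12 without Wild-type replicate 2. In simulated counts of this class 82 of 100 genes changed 4-fold and 31 of 100 changed 2-fold were recovered. There were 6 false calls among 1568 genes tested. The simulation gave every gene the same dispersion and the libraries no shared cells, so recovery in the real libraries was not measured.

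In proximal tubule-like cells the Mt1 change was -0.22 ± 0.26 (SE; -0.78 to 0.34; edgeR adjusted p = 1.00) and the Mt2 change 0.20 ± 0.65 (-1.17 to 1.57, adjusted p = 1.00), with 0 of 6100 genes called (0%), 55 at an unadjusted p under 0.05 and 0 called by DESeq2 or limma-voom. Single assignment put Mt1 at 282 and 79.9 CPM in Akita and 377 and 232 CPM in wild type, a change of -0.74 ± 0.42. In loop of Henle-like cells only 41 genes passed the filter on low counts and neither member was among them. Without the filter the changes were -1.09 ± 0.64 for Mt1 and -0.62 ± 0.82 for Mt2, and single assignment gave -0.67 ± 0.99 for Mt1. Classes by marker UMIs, which put 46 and 75 Akita cells and 65 and 61 wild-type cells in the loop class, gave 0.46 ± 0.29 for Mt1 and 0.56 ± 0.52 for Mt2 (SE). These estimates differ in sign, none was called, and a genotype change was not detectable at this depth.

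The gap between the distal and proximal classes was wider in both Akita libraries. The Mt1 difference, distal convoluted tubule-like minus proximal tubule-like, was 3.80 and 4.14 in Akita and 3.56 and 3.28 in wild type (log2), without overlap, a pattern that 13.1% of 4984 genes showed. As an interaction of genotype and class it was 0.57 ± 0.28 (SE; 95% interval 0.01 to 1.12), with an unadjusted p of 0.0446 but an adjusted p of 1.00 in edgeR, and so did not pass. No gene passed in this comparison (0%, 72 at an unadjusted p under 0.05, 0 by DESeq2 and 0 by limma-voom). Single assignment gave differences of 3.80 and 4.39 in Akita and 3.53 and 3.28 in wild type, and an interaction of 0.74 ± 0.34 (edgeR unadjusted p 0.0291, adjusted p = 1.00). Leaving out each library in turn gave 0.42 to 0.76. Over 15 alternative settings the Mt1 interaction ranged from 0.41 to 1.05. Classes by marker UMIs gave 0.41 ± 0.29 (SE, edgeR unadjusted p 0.176). At least 500 genes per cell gave 0.78 ± 0.32 (SE, edgeR unadjusted p 0.0142). For Mt2 the differences were 4.89 and 3.09 in Akita and 3.36 and 4.53 in wild type, and the interaction was 0.13 ± 0.63 as deposited and 0.79 ± 0.68 under single assignment (edgeR adjusted p = 1.00 for both). Between loop of Henle-like and proximal tubule-like cells the interaction was -0.71 ± 0.90 for Mt1 and -0.92 ± 1.48 for Mt2 (edgeR adjusted p = 1.00 for both; 0 of 3971 genes called, 0%, 10 at an unadjusted p under 0.05, 0 by DESeq2 and 0 by limma-voom), beside a median of -0.32 over all genes tested. Single assignment gave -0.23 ± 1.38 for Mt1 and -0.17 ± 1.92 for Mt2. Leaving out Wild-type replicate 2, which held 46 of the class's Mt1 UMIs, turned the Mt1 value to 0.61 and the Mt2 value to 9.28.

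Of the 5 lists, none had a member called in either direction over all retained cells, in proximal tubule-like or in distal convoluted tubule-like cells. Nfe2l2, the antioxidant response factor, changed by 2.09 ± 0.46 (log2, SE) in distal convoluted tubule-like cells without Akita replicate 2. With all libraries it averaged 151 ± 137 CPM there (SD, n = 4) and did not pass the filter on low counts. Hsd11b2, which inactivates glucocorticoids, changed by 3.42 ± 0.86 over all retained cells without Wild-type replicate 1, and by 0.73 ± 0.78 with all libraries (log2, SE). A fit without a library has 1 library in a genotype, and nothing is read from these values. Over all retained cells 12 zinc, 15 copper and iron, 8 glucocorticoid, 10 antioxidant and 5 stress genes were tested, with median log2 changes of -0.19, -0.03, 0.06, -0.11 and 0.02, against 0.00 over all genes tested.

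**Figure D5:**
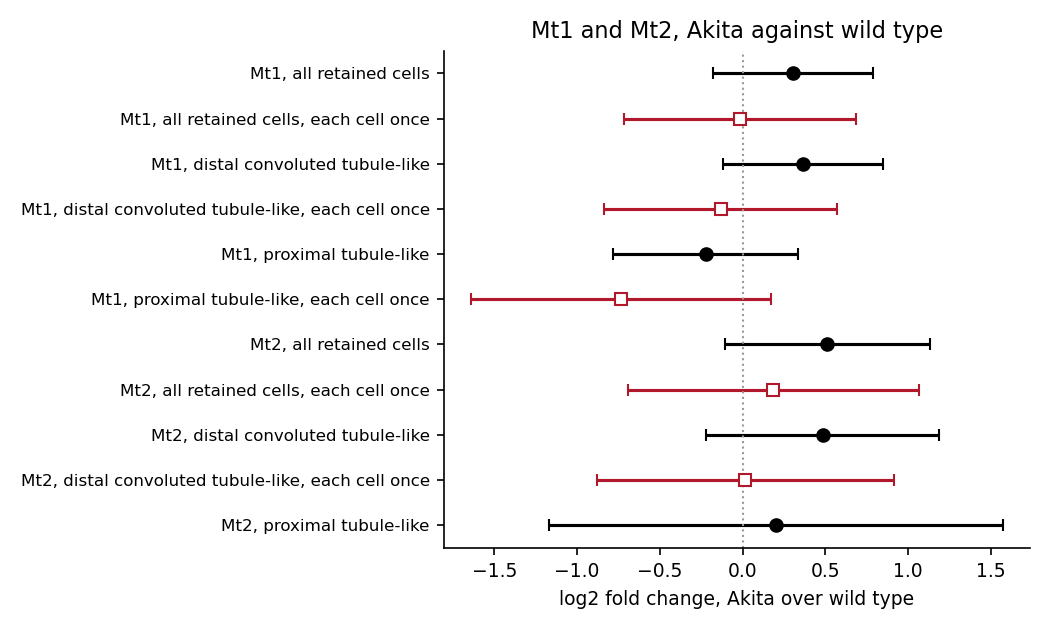
Log2 fold change of Mt1 and Mt2, Akita over wild type (horizontal axis), from edgeR; filled points use the files as deposited and open squares give single assignment of the shared barcodes, with bars for 95% intervals. Every interval crosses 0, and the Mt1 estimate in distal convoluted tubule-like cells is 0.37 as deposited and -0.13 under single assignment. Mt2 in proximal tubule-like cells is drawn as deposited only, since it did not pass the filter on low counts under single assignment.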

How the data were processed

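The authors deposited 1 file of UMI counts per library, giving the count of each gene in each cell barcode, not normalized. Per the submitters' processing notes, the build was GRCm38 and the tools included featureCounts 1.6.0, STAR 2.5.2b and UMI-tools 0.5.3; the annotation release and strand setting are not given in the sources used here. Here, 4 strings per file that were not barcodes (1.08% to 1.33% of UMIs) were left out, and barcodes with at least 200 genes and at most 50% mitochondrial UMIs were retained, which hold 54.9% to 63.1% of UMIs. Retained cells were clustered without Mt1 to Mt4 (scanpy 1.11.5, leidenalg 0.10.2, resolution 1) and classes named from marker lists; no doublet caller was run.

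UMIs were summed per library and class. Genotypes were compared with edgeR 4.0.16 (R 4.3.3; quasi-likelihood, Benjamini-Hochberg over all genes tested), with DESeq2 1.42.0 and limma 3.58.1 as alternatives, besides other cell filters, class definitions, treatment of shared barcodes and leaving out each library. Levels between classes are differences of log2(CPM + 10) within a library. The members and lists were chosen with earlier results of these data known. Named genes are the 2 members, the 8 most and 4 least like them, and the list members that met the class rule plus the 4 most abundant of each list. The division by cotransporter, the distal convoluted comparisons and the likeness over cell groups were added after the data were seen. The count test was checked on simulated counts without shared cells. Each library is described as 1 animal's kidney, so n = 2 a genotype. The genotype fits take the libraries as independent, which Akita replicate 2 and Wild-type replicate 1 are not. Standard errors, intervals and p-values of the files as deposited do not allow for their shared cells.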

Additional observations from a re-analysis of the deposited data

Results flagged for a closer look

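Of 26 sets of 4 library values looked at for a value far from the others, 4 had one. Chance gives about 1 set in 20, but the 4 are not independent: each rests on 1 of 2 low Mt2 counts of Wild-type replicate 2, 0 UMIs in connecting tubule-like and 1 UMI in intercalated-like cells. Nothing is read from their number. In that library connecting tubule-like cells had 0 Mt2 UMIs beside 21 of Mt1. This put its Mt2 difference at -0.79 (log2) for connecting tubule-like minus proximal tubule-like cells, where the other 3 libraries had 4.12 to 4.57. The difference of connecting tubule-like minus intercalated-like cells was -1.93 there. Intercalated-like cells had 1 Mt2 UMI in that library and 0 in the others, which gave 28.0 CPM and a difference from proximal tubule-like cells of 1.14.

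Barcodes not retained as cells, which enter no comparison between genotypes, held metallothionein UMIs at 224 CPM for Mt1 and 39.4 CPM for Mt2, over 5606 barcodes with each shared one counted once. Of these barcodes 5.35% had a Mt1 UMI. The Mt2 share of metallothionein UMIs in them was 14.98% (11.7% to 18.8%, exact binomial), against 6.60% in proximal tubule-like cells.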

How the results depend on the processing

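Of the alternative values of the Mt1 and Mt2 genotype changes, 142 kept their direction and side of the threshold and 14 turned direction, none past it. Single assignment of shared barcodes turned Mt1 to -0.016 over all cells and -0.13 in distal convoluted tubule-like cells. Classes by marker UMIs turned the Mt1 loop interaction to 0.70 ± 0.32 (SE, edgeR unadjusted p 0.0301), with 0 genes called. The Mt2 distal interaction was -0.044 with DESeq2, -0.38 with at least 500 genes per cell and -0.25 with classes by marker UMIs. Leaving out each library gave 0.02 to 0.52 for Mt1 and 0.03 to 0.88 for Mt2 over all cells, and, in proximal tubule-like cells, -0.66 to 0.11 for Mt1 and -0.44 to 1.47 for Mt2. It gave -0.41 to 1.05 for Mt2 in distal convoluted tubule-like cells. The interactions ranged over -1.51 to 0.61 (Mt1, loop), -2.72 to 9.28 (Mt2, loop) and -1.10 to 1.17 (Mt2, distal).

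Counts of genes called were 0 to 23 over all cells, 0 to 13 in proximal tubule-like and 0 to 5 in distal convoluted tubule-like cells when each library was left out. The 23 came with Akita replicate 2 left out and 14 with Wild-type replicate 1 left out, the 13 without either of these, and the 5 (Nfe2l2, Timp3, Krt7, Pigr and mt-Tq, named after their values were seen) without Akita replicate 2. Fits with a library left out have 1 library in a genotype, so these counts are not read as results. Without a filter on low counts 1 gene was called both over all cells and in proximal tubule-like cells, Ces1g, named after its values were seen. Same-numbered replicates had a correlation of -0.13, and with 2 pairs the numbers do not show a pairing. With the replicate block 0 genes were called in these 3 comparisons and 1 in loop of Henle-like cells (Tmem52b), and the Mt1 changes were 0.29 over all cells and 0.37 in distal convoluted tubule-like cells. The crossed replicate block called 0 genes in the same 3 comparisons and 1 in loop of Henle-like cells.

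Class differences moved as follows. Loop of Henle-like minus proximal tubule-like was 0.79 for Mt1 with at most 25% mitochondrial UMIs. The distal classes together differed by 2.91 for Mt1 with classes by marker UMIs, and by 2.41 (Mt1) and 0.75 (Mt2) as a mean over cells of log2(UMIs per 10000 + 1). They differed by 2.42 for Mt2 with shared barcodes left out. At Leiden resolution 0.5 the distal convoluted cluster stayed unnamed, and the remaining distal classes gave 1.02 (Mt1) and -0.95 (Mt2). Distal convoluted minus proximal tubule-like was 3.18 (Mt1) and 0.98 (Mt2) as a mean over cells, and 2.73 for Mt2 with shared barcodes left out. The loop and distal convoluted comparisons gave no value at that resolution, nor the loop comparison without shared barcodes. Depth limits Mt2 in loop, connecting and intercalated-like cells, with 0 to 14 UMIs a library.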
